A study of Mus musculus with 12 samples.

Results

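The adrenal cortex makes steroid hormones from cholesterol, and 9 genes that take up, store, move or export this cholesterol were followed in the adrenal cortex of lean, obese and icosapent ethyl–treated mice. The genes were listed by symbol, by someone who knew earlier results of these data: *Scarb1*, *Soat1*, *Lipa*, *Npc1*, *Npc2*, *Stard3*, *Abca1*, *Abcg1* and *Tspo*. All 9 were found among the 49585 genes of the counts, all passed the filter on low counts in each comparison, and the lowest count of any of them in any mouse was 446. RNA-seq had been done on 12 male C57BL/6J mice, 6 weeks old at the start and fed for 20 weeks. The LFD mice (called normal diet in the labels, replicates 2, 5, 6 and 7) had a diet with 10% of its energy as fat, the HFD mice (replicates 1 to 4) had 60%, and the icosapent ethyl–treated mice (replicates 1 to 4) had the 60% diet throughout, with icosapent ethyl, a purified ethyl ester of eicosapentaenoic acid, in the last 10 weeks. The labels give all 12 mice the genotype Fads2-/-, whereas the study's methods describe wild-type mice for this experiment. Fads2 itself was expressed at between 455.5 and 2200 CPM in every mouse, so that the groups are described here by diet alone.

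The library totals ranged from 34785979 to 67295963 counts, and levels are given as CPM (counts scaled to the library total and edgeR's TMM factor), with the standard deviation (SD) over 4 mice. The summed level of 10 adrenocortical markers was between 42860 and 95979 CPM in all 12 mice, with none of the markers at 0. Markers of other cells were also detected. The summed level of 14 macrophage markers was between 799.7 and 1185 CPM in LFD mice, between 559.7 and 652.2 CPM in HFD mice, and between 604.5 and 748.3 CPM in icosapent ethyl–treated mice. The LFD range lay above both others. The 12 chromaffin cell markers of the adrenal medulla summed to between 6205 and 22283, between 3060 and 9964, and between 5395 and 10745 CPM in the same order of groups, with overlap. The 5 hepatocyte markers summed to 15.7 CPM in icosapent ethyl replicate 4 and to 2.57 CPM or less in every other mouse, so that this library stood apart. In bulk RNA from dissected cortex, the number of cells of a type, their RNA per cell and neighbouring tissue carried over in dissection cannot be told apart.

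As background, steroidogenic cells draw cholesterol mainly from lipoproteins in the blood. SR-BI, the product of *Scarb1*, binds high-density lipoprotein at the cell surface and takes up its cholesteryl esters without taking in the particle, whereas particles taken in whole are broken down in lysosomes. Cholesterol not needed at once is esterified by *Soat1* and kept in lipid droplets, from which hormone-sensitive lipase (*Lipe*) frees it again. Free cholesterol reaches the mitochondria with the help of StAR and is turned into pregnenolone there, while an excess leaves the cell through the transporters *Abca1* and *Abcg1*, whose genes are known targets of the sterol-activated liver X receptors (LXRs).

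Compared per kilobase of transcript, *Scarb1* was the most abundant of the 9 messages and *Abcg1* the least. *Scarb1* was at 1113 ± 297 CPM per kb in LFD mice and 2006 ± 982 in HFD mice (SD, n = 4; length of the longest principal transcript), followed by *Tspo* at 530.2 ± 25.9 and 542.0 ± 90.2. The ranges of these neighbours over mice did not overlap in any group with this length, but with the summed length of all exons *Tspo* stood above *Scarb1* in LFD mice (422.3 against 330.2 CPM per kb). *Soat1* and *Npc2* came next, at 78.9 ± 17.0 and 80.6 ± 6.6 CPM per kb in LFD mice, where their ranges overlapped. *Lipa* followed at 51.7 ± 6.3 CPM per kb in LFD mice. *Abca1* and *Npc1*, at 23.0 ± 4.2 and 19.4 ± 2.3 CPM per kb in LFD mice, also overlapped, and they stood in the opposite order in HFD mice, at 13.1 ± 2.8 and 31.6 ± 4.3. *Stard3* was at 12.5 ± 1.0 and *Abcg1* at 4.19 ± 0.46 CPM per kb in LFD mice.

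HFD and LFD mice were compared to ask how the diet altered this set of genes. Of the 9, *Npc1* rose and *Abcg1* fell in HFD mice, with adjusted p-values under 0.05 in the quasi-likelihood test of edgeR, adjusted over all 15909 genes tested. Among all those genes 0.974% rose and 0.471% fell by the same rule. At an unadjusted p below 0.05, 7 of the 9 genes passed against 24.8% of all genes, and in 4 of the 9 (*Npc1*, *Npc2*, *Abca1* and *Abcg1*) the mice of the groups did not overlap, against 13.6% of all genes. With DESeq2, the tool the study used, the same 4 genes passed, against 12.3% of all genes. The median log2 fold change was 0.03 for the 9 genes and −0.01 for all genes, with 6 of the 9 on the higher side. The values of each mouse are in the plot of levels.

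**Figure D1:**
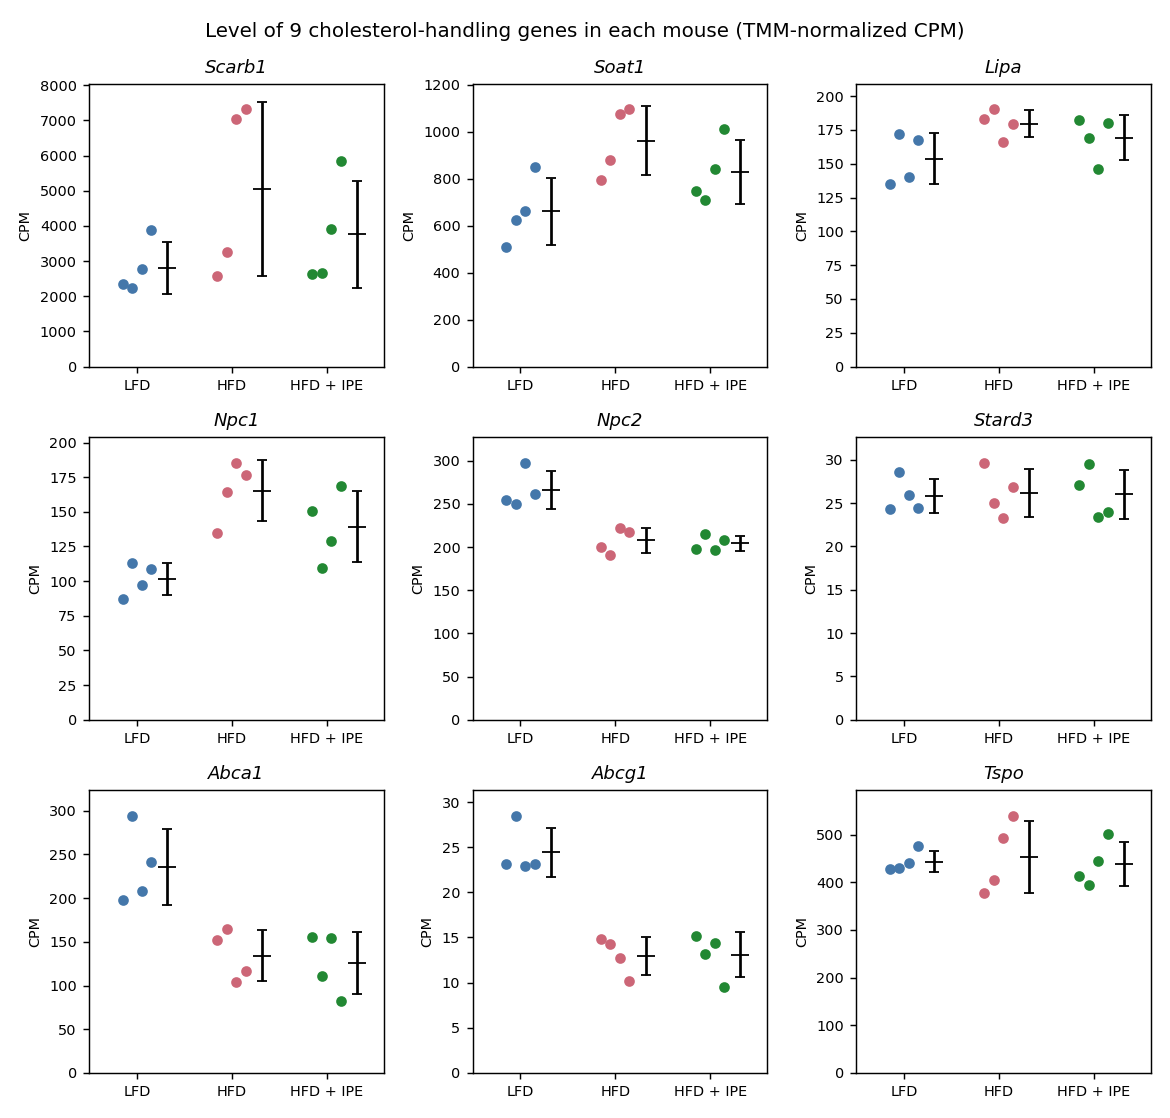
Level of each of the 9 genes in TMM-normalized CPM (y axis, from 0) in LFD, HFD and HFD + icosapent ethyl (IPE) mice. Each point is 1 mouse in the order of its replicate number, and the bar beside it is the mean ± SD of 4 mice. The LFD points of *Abca1*, *Abcg1* and *Npc2* lie apart from those of both other groups, and the HFD points of *Npc1* lie above its LFD points.

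*Scarb1* (chr5:125277087-125341094, minus strand, GRCm38), which encodes the high-density lipoprotein receptor, varied widely between mice. It was at 2352, 2225, 2779 and 3870 CPM in the LFD mice, at 2586, 3269, 7055 and 7316 CPM in the HFD mice, and at 2623, 2672, 3900 and 5856 CPM in the icosapent ethyl–treated mice, in the order of their replicate numbers. HFD replicates 3 and 4 stood high and HFD replicates 1 and 2 lay within the LFD range, so that the groups overlapped. The log2 fold change of HFD over LFD mice was 0.85 ± 0.35 (SE, edgeR adjusted p = 0.181), with a 95% interval from 0.05 to 1.65. The mice with the highest *Scarb1* were also those with the highest sums of adrenocortical markers, from 91422 to 95979 CPM in HFD replicates 3 and 4 and in icosapent ethyl replicate 4, and the part of this in the result was not tested.

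*Soat1* (chr1:156424525-156474331, minus strand), the acyltransferase that forms cholesteryl esters for storage, was at 507.0, 622.9, 663.1 and 849.3 CPM in the LFD mice. In the HFD mice it was at 796.1, 877.6, 1077 and 1095 CPM, and in the icosapent ethyl–treated mice at 749.1, 708.4, 840.1 and 1012 CPM. A single LFD mouse, replicate 7, reached into the HFD range. The log2 fold change of HFD over LFD mice was 0.54 ± 0.17 (SE) and did not pass the threshold (adjusted p = 0.108 by edgeR).

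The 4 genes of lysosomes and late endosomes did not move as a group. *Npc1* and *Npc2* encode partners in the same step, in which the soluble NPC2 protein takes cholesterol inside the lysosome and hands it to the membrane protein NPC1 for export, and their messages went in opposite directions. *Npc1* (chr18:12189692-12236400, minus strand) was at 86.9, 113.3, 97.2 and 108.4 CPM in the LFD mice and at 134.7, 164.1, 185.6 and 176.7 CPM in the HFD mice. Each of the 4 HFD mice exceeded every LFD mouse, and *Npc1* rose by 0.70 ± 0.12 on the log2 scale (SE, edgeR adjusted p = 0.0408). The gene overlaps *Rmc1* and the antisense gene *Gm15956* on the opposite strand, and the authors counted reads by strand. *Scarb1* overlaps *Gm42633* and *Abcg1* overlaps *Gm25447* on their own strand, where counting by strand does not separate reads, and the effect on their counts was not tested.

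*Npc2* (chr12:84754562-84773152, minus strand) was at 254.8, 249.8, 298.1 and 261.1 CPM in the LFD mice and at 200.6, 191.4, 222.1 and 217.7 CPM in the HFD mice. All HFD mice were below all LFD mice, by 0.36 ± 0.09 on the log2 scale (SE), but the adjusted p of 0.0736 by edgeR missed the threshold. By DESeq2 the adjusted p was 0.0293, and over 9 alternatives in which every mouse was kept it lay between 0.0293 and 0.549.

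*Lipa* encodes the lysosomal acid lipase that frees cholesterol from the esters of ingested lipoproteins, and *Stard3* a cholesterol-transfer protein of late endosomes. Of the 4 genes these changed least, although *Lipa* had an unadjusted p below 0.05 by edgeR and *Stard3* did not. *Lipa* (chr19:34492318-34527474, minus strand) was at 134.8, 172.2, 140.2 and 167.2 CPM in the LFD mice and at 183.0, 190.2, 165.8 and 179.7 CPM in the HFD mice, with overlap and a log2 fold change of 0.22 ± 0.09 (SE, edgeR adjusted p = 0.184). *Stard3* (chr11:98358368-98381112, plus strand) was between 24.3 and 28.6 CPM in LFD mice and between 23.3 and 29.7 CPM in HFD mice. Its log2 fold change was 0.02, with a 95% interval from −0.21 to 0.25 and an adjusted p of 0.941 by edgeR.

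Both exporters were lower in HFD mice. *Abcg1* (chr17:31057675-31117988, plus strand), which passes cholesterol to high-density lipoprotein particles, was at 23.2, 28.5, 22.9 and 23.1 CPM in the LFD mice and at 14.8, 14.3, 12.7 and 10.2 CPM in the HFD mice. The highest HFD mouse was well below the lowest LFD mouse, and *Abcg1* fell by 0.92 ± 0.15 on the log2 scale (SE, edgeR adjusted p = 0.0384), to 0.53 of its level in LFD mice. *Abca1* (chr4:53030787-53159895, minus strand), which loads cholesterol onto lipid-poor apolipoproteins, was at 198.4, 294.4, 208.4 and 241.1 CPM in the LFD mice and at 151.8, 165.1, 103.7 and 116.2 CPM in the HFD mice. Its groups did not overlap either, with a log2 fold change of −0.82 ± 0.17 (SE), but the adjusted p of 0.0551 by edgeR lay just outside the threshold. DESeq2 gave *Abca1* an adjusted p of 0.0019, and over 9 alternatives with every mouse kept it lay between 0.0019 and 0.709.

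Most macrophage markers were, like the exporters, lower in HFD than in LFD mice. Of the 14 markers, 11 were on the lower side in HFD mice, 6 of them fell with an adjusted p below 0.05 by edgeR (0.471% of all genes), and none was at 0 in any group. *Mrc1*, *Mertk* and *Cd163* had higher means in HFD mice (32.1, 21.3 and 0.94 CPM) than in LFD mice (27.1, 18.3 and 0.87 CPM). The range of the sum of all 14 in LFD mice did not overlap that in HFD mice (given above). Within groups the order was mixed. LFD replicates 5 and 7 were highest in both the sum and *Abca1*, whereas HFD replicate 3 had the highest HFD sum (652.2 CPM) and the lowest HFD *Abca1* (103.7 CPM). With the mean of the 14 markers as a covariate, the log2 fold change was −0.52 for *Abcg1* (adjusted p = 0.496 by edgeR) and −0.32 for *Abca1* (adjusted p = 0.709), and no gene of the whole set of tested genes passed. For *Npc1* it was 1.01 in the same fit (adjusted p = 0.428). Over its 9 alternatives with every mouse kept, the adjusted p of *Abcg1* ran from 3.42e-06 to 0.496 and that of *Npc1* from 0.000621 to 0.428. The marker mean in log2 CPM ran from 4.71 to 5.18 in LFD mice and from 4.06 to 4.42 in HFD mice. Because it does not overlap between the diets, the fit cannot divide a change between diet and markers. The part of the macrophage markers in these results was not tested.

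**Figure D2:**
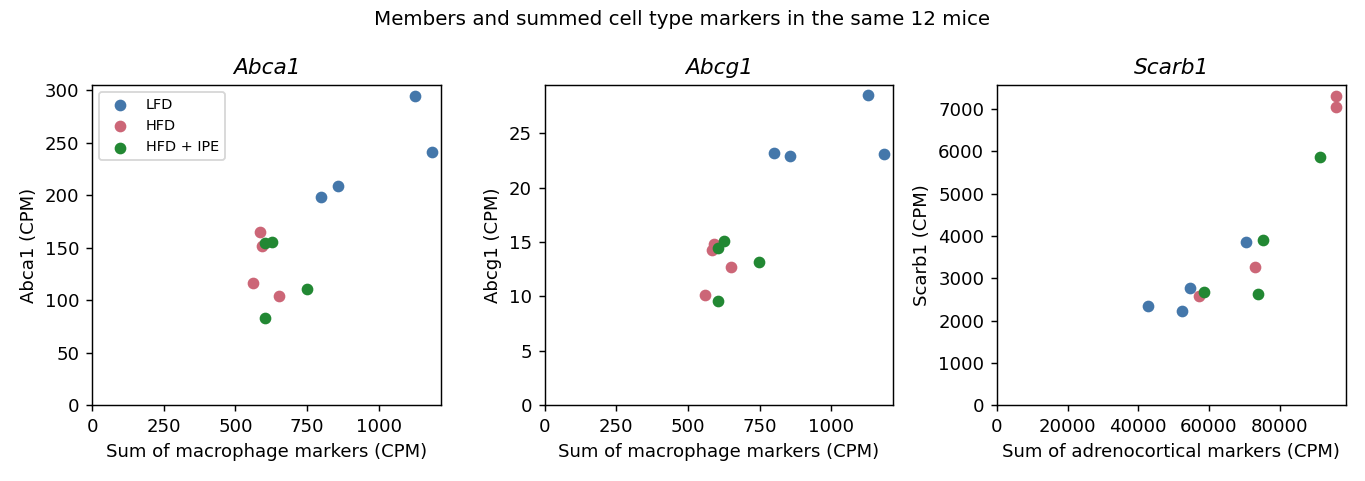
*Abca1* and *Abcg1* (y axes, CPM) against the sum of 14 macrophage markers (x axis, CPM), and *Scarb1* against the sum of 10 adrenocortical markers, with 1 point for each of the 12 mice, colored by group. The LFD mice lie to the upper right for both exporters, at 799.7 CPM of macrophage markers or more, and HFD replicates 3 and 4 and icosapent ethyl replicate 4 lie to the upper right for *Scarb1*.

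Leaving out single mice altered the calls. *Npc1* and *Abcg1* kept an adjusted p below 0.05 by edgeR after the removal of 1 mouse only where that mouse was HFD replicate 1 (0.0174 and 0.0245). When 1 of the other 7 mice was removed instead (LFD replicates 2, 5, 6 and 7 and HFD replicates 2, 3 and 4), the adjusted p was between 0.0625 and 0.135 for *Npc1* and between 0.0566 and 0.129 for *Abcg1*, while the log2 fold change stayed between 0.64 and 0.76 for *Npc1* and between −0.96 and −0.81 for *Abcg1*. *Abca1* passed without HFD replicate 1 (adjusted p = 0.0398) and had an adjusted p of up to 0.151 without another mouse.

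*Tspo* (chr15:83563592-83574203, plus strand), a cholesterol-binding protein of the outer mitochondrial membrane, was at 429.0, 430.9, 439.7 and 475.6 CPM in the LFD mice. In the HFD mice it was at 378.2, 404.0, 492.3 and 540.0 CPM, with 2 mice below and 2 mice above the whole LFD range. The log2 fold change was 0.03, with a 95% interval from −0.25 to 0.30 (adjusted p = 0.915 by edgeR). Its sign turned with unscaled library totals (−0.085), as did that of *Stard3* (−0.077). *Tspo* overlaps the gene *Mcat* on the opposite strand at one end.

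Icosapent ethyl–treated mice were compared with HFD mice to ask whether the supplement altered these genes in obese mice. None of the 9 genes passed the threshold by edgeR, and neither did any of the 15913 genes tested (0%), with the lowest adjusted p at 0.9997. None of the 9 had an unadjusted p below 0.05 (1.39% of all genes), a separation of the groups (1.09% of all genes) or an adjusted p below 0.05 by DESeq2 (0.0268% of all genes, which is 7 genes). Of the 9, 8 were on the lower side, with a median log2 fold change of −0.08 against 0.004 for all genes, of which 51.12% were on the higher side. Among the 8, *Npc2*, *Stard3*, *Abca1* and *Tspo* turned sign when single mice were left out.

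This comparison uses the same 4 HFD mice as the one before, so that a value that happens to be high in HFD mice moves both comparisons in opposite directions. *Scarb1* had a log2 fold change of −0.43 ± 0.40 (SE), with a 95% interval from −1.34 to 0.47, and the value ran from −0.73 without icosapent ethyl replicate 4 to −0.21 without HFD replicate 3 or 4. *Npc1*, at 150.9, 109.2, 128.9 and 168.4 CPM in the icosapent ethyl–treated mice, had one of −0.25 ± 0.15, with an interval from −0.60 to 0.10. Icosapent ethyl replicates 1 and 4 were within the HFD range of *Npc1*, whereas replicate 2 was within its LFD range. *Soat1* had a log2 fold change of −0.22 ± 0.15, with an interval from −0.56 to 0.13.

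Both exporters were close to their HFD levels in the icosapent ethyl–treated mice. *Abca1* was at 155.2, 110.8, 154.0 and 82.7 CPM in these mice, with a log2 fold change of −0.09 against HFD mice (95% interval from −0.59 to 0.40). *Abcg1* was at 15.1, 13.2, 14.4 and 9.5 CPM, with a log2 fold change of 0.01 (interval from −0.40 to 0.42). For both genes replicate 4, the library with the high hepatocyte markers, was the lowest of the icosapent ethyl–treated mice, and without it the log2 fold change was 0.06 for *Abca1* and 0.13 for *Abcg1*. The intervals include changes of 0.40 on the log2 scale in either direction, which 4 mice a group could not tell from 0.

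*Npc2*, *Lipa*, *Stard3* and *Tspo* had narrower intervals. *Npc2* was at 197.6, 215.1, 196.4 and 207.9 CPM in the icosapent ethyl–treated mice, with an interval of the log2 fold change against HFD mice from −0.21 to 0.16. *Lipa*, at 182.1, 168.7, 146.3 and 180.3 CPM, had one from −0.28 to 0.11. *Stard3*, between 23.4 and 29.6 CPM, had an interval from −0.27 to 0.25, and *Tspo*, between 393.8 and 501.1 CPM, had one from −0.36 to 0.26.

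**Figure D3:**
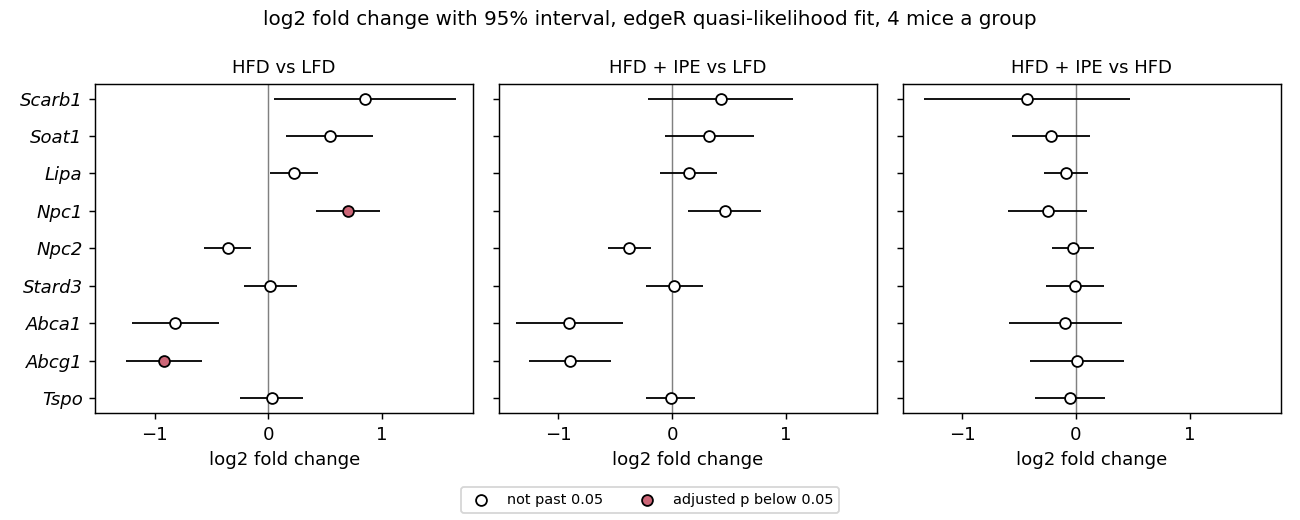
Log2 fold change (x axis) of each of the 9 genes in the 3 comparisons, with the 95% interval from edgeR's fit as a line, 4 mice a group. Filled points (*Npc1* and *Abcg1* in HFD versus LFD mice) have an adjusted p below 0.05, and every interval crosses 0 in HFD + icosapent ethyl (IPE) versus HFD mice.

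Icosapent ethyl–treated mice were also compared with LFD mice, a comparison that shares its mice with the others. None of the 9 genes and none of the 15935 genes tested (0%) passed by edgeR, where the lowest adjusted p was 0.153. An unadjusted p below 0.05 was found in 4 of the 9 genes (14% of all genes). In 3 of the 9, namely *Npc2*, *Abca1* and *Abcg1*, all icosapent ethyl–treated mice were below all LFD mice (7.73% of all genes did not overlap in either direction), and the same 3 passed by DESeq2 (2.69% of all genes). *Abcg1* had a log2 fold change of −0.90 ± 0.16 (SE, with adjusted p-values of 0.153 in edgeR and 0.000139 in DESeq2), *Abca1* had −0.90 ± 0.21 (0.188 and 0.00999), and *Npc2* had −0.38 ± 0.08 (0.187 and 0.0181). Over 9 alternatives with every mouse kept, the adjusted p ran up to 0.935 for *Abcg1* and *Npc2* and to 0.954 for *Abca1*. *Npc1* had a log2 fold change of 0.46 ± 0.14 (SE, edgeR adjusted p = 0.262), and icosapent ethyl replicate 2 lay within the LFD range.

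Promoter sequences were found in RefSeq (GRCm38.p6) for 5 of the 9 genes, namely *Soat1*, *Npc2*, *Lipa*, *Abca1* and *Stard3*. Those of *Abca1*, of *Npc2* and of *Soat1* are shown, *Abca1* for its direct repeat (described below), and *Npc2* and *Soat1* as examples with only the common CCAAT box. Each is the 150 bases before the annotated start, 5′ to 3′ on the gene's strand, with matches to the motifs searched in capitals.
Abca1 (chr4:53159896-53160045, minus strand): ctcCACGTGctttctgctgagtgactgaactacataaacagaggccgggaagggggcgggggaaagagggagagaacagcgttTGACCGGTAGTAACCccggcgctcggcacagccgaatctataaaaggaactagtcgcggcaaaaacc
Npc2 (chr12:84773113-84773262, minus strand): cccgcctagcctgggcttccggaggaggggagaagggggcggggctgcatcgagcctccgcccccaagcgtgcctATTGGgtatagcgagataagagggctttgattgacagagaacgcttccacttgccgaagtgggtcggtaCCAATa
Soat1 (chr1:156474329-156474478, minus strand): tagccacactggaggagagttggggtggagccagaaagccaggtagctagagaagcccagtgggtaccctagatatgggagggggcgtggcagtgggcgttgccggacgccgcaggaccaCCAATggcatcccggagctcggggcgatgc

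In the windows from 250 bases before to 50 bases after the start, 5 motifs were searched on both strands. *Abca1* held an E-box, CACGTG, beginning 147 bases before the start, which 7.15% of 32851 promoters held. It also held, on the reverse strand beginning 67 bases before the start, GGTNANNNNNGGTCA, a direct repeat of the kind LXRs are known to bind, with repeats 4 bases apart. This motif was added after the sequence had been seen, and 0.207% of all promoters held it. The CCAAT box, held by 37.4% of promoters in either direction, was found in *Npc2*, *Soat1*, *Lipa* and *Stard3*. *Stard3* also held TCACNCCAC, a core of sterol response elements found in 1.24% of promoters, beginning 211 bases before the start. AAGGTCA, the core of sites bound by steroidogenic factor 1, was in none of the 5 windows and in 4.72% of all promoters. These are matches of letters, and binding was not measured.

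The mice differed within groups, and some of the 9 genes varied together. With the group means removed, 36 pairs of genes were compared over the 12 mice, and 4 pairs passed by both Pearson's r and Spearman's rho in an exact permutation test within groups, two-sided, with Benjamini-Hochberg adjustment over the pairs. *Scarb1* and *Tspo* followed each other most closely (r = 0.97, rho = 0.98, adjusted p = 0.00521 and 0.0143). *Scarb1* and *Soat1* (r = 0.88, rho = 0.83, adjusted p = 0.00955 and 0.0217) and *Soat1* and *Tspo* (r = 0.82, rho = 0.86, adjusted p = 0.0026 for both, the smallest that the permutations allow) made up the same trio. The exporters formed the fourth pair, *Abca1* and *Abcg1* (r = 0.86, rho = 0.83, adjusted p = 0.0287 and 0.0396). The share of pairs among all genes that would pass was not computed, so the 4 pairs do not set these genes apart. With group means removed, genes outside the set were as close, such as *Dynlt3* to *Scarb1* (r = 0.98) and *Fth1* to *Tspo* (r = 0.98). Both were picked from 13459 genes for their likeness. Without the 2 mice farthest from the median of the first gene, r was 0.97 for *Scarb1* and *Tspo*, 0.83 for *Scarb1* and *Soat1*, 0.96 for *Soat1* and *Tspo*, and 0.75 for *Abca1* and *Abcg1*. This test takes the 12 mice as independent, although HFD and icosapent ethyl–treated mice of the same number correlated at 0.122 to 0.655 over 15913 genes. Mice of different numbers correlated at up to 0.621 (HFD replicate 1 with icosapent ethyl replicate 2), so that the numbers need not mark matched mice. When same-numbered mice of these groups were permuted together, which was added after the data were seen and allows 576 arrangements with a smallest p of 0.00174, the adjusted p by r in this exact test was 0.0469 for the pairs within the trio and for *Scarb1* with *Abcg1*, and 0.05 for the exporters, and none of the 36 pairs passed by rho (lowest adjusted p 0.0625).

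Between the trio and the exporters all correlations were negative, from r = −0.36 (*Soat1* and *Abca1*) to r = −0.78. That of *Scarb1* with *Abcg1* was r = −0.78 (adjusted p = 0.0636) and rho = −0.76 (adjusted p = 0.0396), and fell short by r in the permutation test over 12 mice. The other pairs between them passed by neither r nor rho in that test. *Npc1* and *Npc2*, the partners in lysosomal export, showed r = 0.04 (adjusted p = 0.921 in the permutation test). Of the 36 pairs, 18 were positive and 18 negative.

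**Figure D4:**
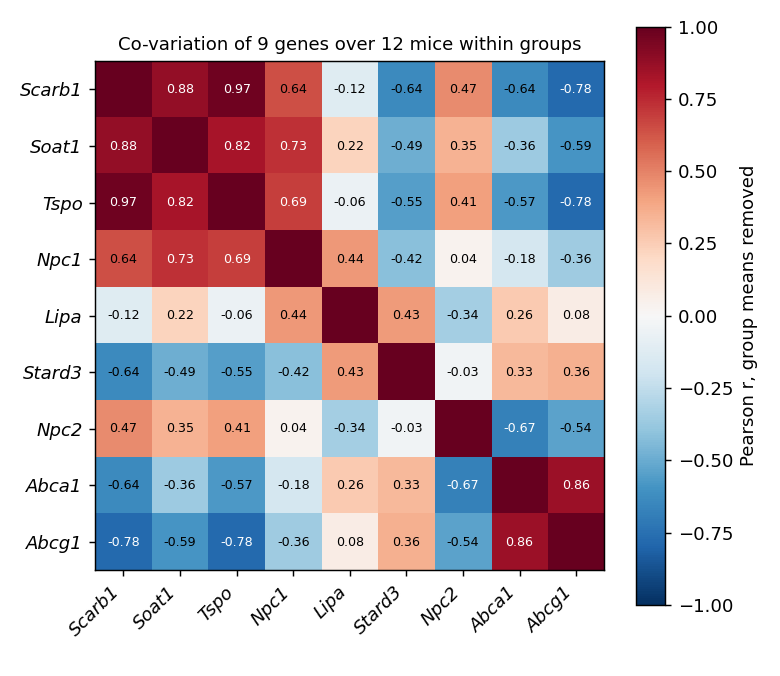
Pearson's r of log2 CPM for each pair of the 9 genes over 12 mice, with the mean of each group removed (rows and columns are genes, red is positive and blue negative). *Scarb1*, *Soat1* and *Tspo* form a block of 0.82 to 0.97, *Abca1* and *Abcg1* reach 0.86, and the cells that join these blocks are blue.

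Genes with the most similar patterns over all 12 mice were sought among 13459 genes with a mean of at least 1 CPM, by Pearson's r of log2 CPM with the groups included, as a description. *Abcg1* was the gene most like *Abca1* (r = 0.94), and *Vwa1* (0.96) and *Endod1* (0.96) were most like *Abcg1*. *Phb*, *Psmc4* and *Dynlt3* were most like *Scarb1* (each r = 0.97), and the 3 most like *Soat1* were *Atp5b* (0.98), *Psme3* (0.98) and *Cyp11a1* (0.97), the enzyme that makes pregnenolone from cholesterol in mitochondria. *Npc1* had *Pcx*, the pyruvate carboxylase gene, at 0.98, with *Sdc3* and *Slc46a3*, and *Npc2* had *Rps4x* at 0.97, with *Eef1g* and *Rps21*, which are all genes of the translation machinery. *Tspo* was most like *Txnl1* (0.96), *Tmem208* and *Fth1*, *Lipa* was most like *Klf12* (0.96), *Il6st* and *Rab31*, and *Stard3*, with the weakest likeness, was most like *Prr14* (0.89), *Abhd15* and *Khnyn*.

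Another 60 genes of the same pathway were listed by role, of which 52 had enough counts to be tested. In HFD versus LFD mice 2 of them rose and 2 fell with an adjusted p below 0.05 by edgeR, against 0.974% and 0.471% of all genes. By DESeq2, 10 of the 52 passed, against 12.3% of all genes. Of the 52, 36 were on the higher and 16 on the lower side, with a median log2 fold change of 0.12, while 48.24% of all genes were on the higher side, with a median of −0.01. The genes that rose belong to the lipid droplet. *Lipe* was at 57.5, 61.5, 52.9 and 50.2 CPM in the LFD mice and at 90.0, 104.9, 111.5 and 104.4 CPM in the HFD mice, which gave a log2 difference of 0.88 ± 0.10 (SE, edgeR adjusted p = 0.0293). *Plin2*, which coats the droplet, was between 277.2 and 344.0 CPM in LFD mice and between 419.4 and 462.6 CPM in HFD mice, 0.49 ± 0.08 higher on the log2 scale (SE, edgeR adjusted p = 0.0398).

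The genes that fell, *Pltp* and *Apoe*, act on lipoproteins outside the cell. In the same comparison 6 of the 14 macrophage markers fell (0.471% of all genes), and their part in the fall of *Pltp* and *Apoe* was not tested. *Pltp*, the phospholipid transfer protein, was at 53.1, 60.5, 47.8 and 70.3 CPM in the LFD mice and at 29.1, 23.6, 21.8 and 15.6 CPM in the HFD mice, which gave a log2 difference of −1.37 ± 0.19 (SE, edgeR adjusted p = 0.0376). *Apoe*, an apolipoprotein that macrophages also make, was between 1185 and 1935 CPM in LFD mice and between 721.7 and 906.0 CPM in HFD mice, and fell by 0.91 ± 0.17 on the log2 scale (SE, edgeR adjusted p = 0.0441).

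The other routes of supply were less clear. *Cd36*, a fatty acid and lipoprotein scavenger receptor, was higher in all HFD than in all LFD mice at 1.004 ± 0.220 (SE, edgeR adjusted p = 0.0569), and *Scarb2*, a lysosomal membrane protein related to SR-BI, was lower in all of them at −0.30 ± 0.08 (SE, edgeR adjusted p = 0.0873). *Star*, whose product brings cholesterol into mitochondria, varied from 6898 to 20222 CPM in LFD mice and from 13074 to 35074 CPM in HFD mice, with a log2 fold change of 0.92 ± 0.37 (SE, edgeR adjusted p = 0.173).

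In icosapent ethyl–treated versus HFD mice, none of the 52 genes passed by edgeR or by DESeq2, 2 had an unadjusted p below 0.05 (1.39% of all genes), and the median log2 fold change was −0.05 against 0.004 for all genes. The 2 genes were *Plin2* and *Apoe*. *Plin2* was at 396.1, 404.6, 326.0 and 343.3 CPM in the icosapent ethyl–treated mice, all below the HFD mice, with a log2 fold change of −0.27 ± 0.09 (SE, edgeR adjusted p = 0.9997). *Apoe* was at 972.1, 1278, 1080 and 840.9 CPM, where replicate 4 lay within the HFD range, with a log2 fold change of 0.34 ± 0.14 (SE, edgeR adjusted p = 0.9997). The next lowest unadjusted p-values on the lower side were those of *Lrp1* (−0.22 ± 0.12) and *Lipe* (−0.26 ± 0.14), and on the higher side those of *Stard5* (0.48 ± 0.32) and *Ces1d* (0.33 ± 0.31), log2 fold changes with SE. In icosapent ethyl–treated versus LFD mice none of the 52 passed by edgeR, 10 had an unadjusted p below 0.05 (14% of all genes), and 3 passed by DESeq2 (2.69% of all genes). *Pltp* was below every LFD mouse, at 25.6, 31.6, 20.7 and 20.1 CPM.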

How the data were processed

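RNA of the adrenal cortex of 12 mice was sequenced as 1 stranded total RNA library per mouse. The authors trimmed reads with cutadapt, aligned them to GRCm38 with STAR, counted them per GENCODE M12 gene with HTSeq 0.6.1p1 by strand, and deposited raw counts. Totals were 34785979 to 67295963 per mouse, and the depth was ample for all 9 genes, so that the number of mice limits the precision. No library was a copy of another in 66 pairs (lowest chi-square per degree of freedom 26.5). Symbols and coordinates are from GENCODE M21 and matched 49326 of 49585 genes.

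Groups followed the labels. CPM and tests were computed from the counts with edgeR 4.0.16 in R 4.3.3 (TMM, filterByExpr minimum count 10, robust quasi-likelihood fit, 2 groups at a time, Benjamini-Hochberg adjustment over all genes tested, threshold 0.05), after tests on simulated data. Intervals are 95%, from the fit's SE. Log2 CPM used a prior count of 2. Exact permutations within groups numbered 13824, and 576 with same-numbered mice moved together. Named genes were the 9 members, pathway genes past the threshold or with the 3 lowest p-values in each direction in HFD versus LFD and icosapent ethyl–treated versus HFD mice, *Star*, the 3 genes most like each member, and Fads2. The members and lists were chosen with earlier results of these data known.

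HFD and icosapent ethyl–treated mice share the numbers 1 to 4, and after the group mean was subtracted, mice with the same number correlated at 0.253, 0.122, 0.354 and 0.655 over 15913 genes. All being above 0.1, the numbers were used as a replicate block in an alternative. Nothing in the labels says that they mark pairs. HFD replicates 1, 2 and 3 correlated more with icosapent ethyl replicates 2, 1 and 4 (0.621, 0.474 and 0.387) than with their own numbers. Other alternatives were DESeq2 1.42.0, its size factors, unscaled totals, no filter, a minimum of 10 counts per mouse, 1 fit to all 12 mice, the macrophage, adipocyte or chromaffin marker mean as a covariate, and the omission of single mice.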

Additional observations from a re-analysis of the deposited data

Results flagged for a closer look

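In 60 groups of 4 mice (the 9 genes and the named pathway genes in each diet group), a single mouse was set apart from the other 3 by a gap above Dixon's 95% critical share of the group's range in 2 cases, and chance alone flags about 1 group in 20. *Abcg1* was at 28.49 CPM in LFD replicate 5, whereas the other LFD mice lay between 22.91 and 23.18 CPM, and without this mouse the log2 fold change of HFD over LFD mice was −0.84 (adjusted p = 0.0675 by edgeR). *Stard5*, a cholesterol-binding transfer protein, was at 38.35 CPM in LFD replicate 2 and between 18.62 and 19.71 CPM in the other LFD mice.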

How the results depend on the processing

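In HFD versus LFD mice, 2 of the 9 genes passed. The number was 4 by DESeq2, 5 with the adipocyte marker mean as a covariate, 0 with the macrophage or the chromaffin marker mean, and 0 to 3 without 1 mouse. The number of all genes that passed (230) was 1965, 2446, 0 and 0 under the same settings, 556 with all 12 mice in 1 fit, 84 with unscaled totals, and 0 to 918 without 1 mouse. With the chromaffin mean the log2 fold change was 0.58 for *Npc1* (adjusted p = 0.421 by edgeR) and −0.82 for *Abcg1* (adjusted p = 0.368), and with unscaled totals that of *Abcg1* was −1.01 (adjusted p = 0.0573). In icosapent ethyl–treated versus LFD mice the number was 0, and 3 by DESeq2. In icosapent ethyl–treated versus HFD mice it was 0 throughout. The replicate block changed no call there, with 0 of the 9 genes past the threshold and a log2 fold change of −0.36 for *Scarb1*. No paired analysis was possible with LFD mice because they share only the number 2 with the other groups. With same-numbered mice permuted together (a replicate block added after the data were seen), 0 of the 36 pairs of the 9 genes passed by both r and rho, against 4. The causes were not tested.

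Unscaled totals moved the median of all genes by −0.099 in HFD versus LFD, 0.059 in icosapent ethyl–treated versus HFD, and −0.048 in icosapent ethyl–treated versus LFD mice. Values that turned were all close to 0. With unscaled totals, the log2 fold change in HFD versus LFD mice was −0.085 for *Tspo* and −0.077 for *Stard3*, in icosapent ethyl–treated versus HFD mice 0.018 for *Tspo*, 0.042 for *Npc2* and 0.053 for *Stard3*, and in icosapent ethyl–treated versus LFD mice −0.024 for *Stard3*. With the macrophage mean it was −0.026 for *Tspo* in HFD versus LFD and −0.0029 for *Abcg1* in icosapent ethyl–treated versus HFD mice. With the chromaffin mean it was −0.068 for *Tspo* in HFD versus LFD, and −0.16 for *Abcg1* and 0.040 for *Tspo* in icosapent ethyl–treated versus HFD mice. With the adipocyte mean it was 0.029 for *Tspo* in icosapent ethyl–treated versus LFD mice. Without 1 mouse, the value in HFD versus LFD mice ranged from −0.045 to 0.071 for *Stard3* and from −0.059 to 0.11 for *Tspo*. In icosapent ethyl–treated versus HFD mice it ranged from −0.067 to 0.022 for *Npc2*, −0.079 to 0.051 for *Stard3*, −0.21 to 0.060 for *Abca1*, −0.097 to 0.13 for *Abcg1*, and −0.13 to 0.037 for *Tspo*, and in icosapent ethyl–treated versus LFD mice from −0.052 to 0.068 for *Stard3* and −0.088 to 0.034 for *Tspo*.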

Other observations

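Adipocyte markers, of cells that can cling to a dissected adrenal gland, summed to between 241.4 and 399.3 CPM in LFD mice, between 367.8 and 445.5 CPM in HFD mice, and between 312.3 and 425.2 CPM in icosapent ethyl–treated mice. *Plin1* and *Fabp4* made up most of the sum (means of 156.5 and 123.6 CPM in LFD mice, against 5.42 CPM for *Adipoq*). In HFD versus LFD mice 5 adipocyte markers were on the higher side and 4 on the lower side. None of the 9 markers passed in HFD versus LFD mice by edgeR (4 had an unadjusted p below 0.05, and 3 passed by DESeq2, against 24.8% and 12.3% of all genes). Of the 10 endothelial markers none passed either, with 1 at an unadjusted p below 0.05 and 0 by DESeq2. All 10 adrenocortical markers were on the higher side in HFD mice (median 0.50 on the log2 scale), and all 12 chromaffin markers on the lower side (median −1.24). Neither list had a gene past the threshold by edgeR, with 5 and 9 genes at an unadjusted p below 0.05 and 2 and 5 by DESeq2, against 24.8% and 12.3% of all genes.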
